A study of Mus musculus with 120 samples.

Results

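The genes described here are 10 genes of the fast-twitch muscle fibre, followed through soleus muscle and, for reference, heart of mice with a mitochondrial mutation, with or without endurance training. They are Actn3, Pvalb, Mybpc2, Tnni2, Tnnt3, Tnnc2, Myl1, Mylpf, Atp2a1 and Casq1, taken by name as proteins of the contractile apparatus and of calcium handling, 10 of 53656 genes in the deposited tables. All 10 passed the filter on low counts in soleus and 9 passed it in heart, where Tnnc2 did not. Of the 4 strains analysed, ANT1 mice are homozygous for a null allele of Slc25a4 (ANT1-/-), the adenine nucleotide translocator that exchanges ATP for ADP across the inner mitochondrial membrane of muscle and heart. The other 3 strains carry a missense mutation in mitochondrial DNA (mtDNA), in the complex I subunit ND5, the complex I subunit ND6 or the complex IV subunit CO1, and are called the mtDNA strains. They are labelled ND5S204F, ND6P25L and CO1V421A, after the allele each carries, and are written ND5, ND6 and CO1 below. All 4 are on the C57BL/6EiJ background, with intact Nnt. Exercised mice were run every 2nd day for 45 min at 50% of maximal capacity over 8 weeks from 16 weeks of age, whereas non-exercised mice were only handled. The labels place sampling 6 days after the last session. Each strain and arm had 6 mice per tissue, so that 6 ANT1 mice stood against 18 mtDNA mice in each arm. No group analysed here was free of a mitochondrial mutation, so that every strain difference is between mutants. The labels class the exercised mice, by soleus sample, as responders or non-responders to training.

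Fast fibres contract and relax quickly because they use their own isoforms of the sarcomeric proteins and because they move calcium in and out of the cytosol faster than slow fibres. Calcium released from the sarcoplasmic reticulum binds troponin C on the thin filament, troponin I lets go of actin, troponin T passes the change on to tropomyosin, and myosin heads with their light chains then bind actin; the pump SERCA1 and the soluble buffer parvalbumin bring calcium down again. Each adult fibre is typed by its myosin heavy chain, Myh7 in slow fibres, Myh2 in type IIa, Myh1 in type IIx and Myh4 in the fastest type IIb. The mouse soleus is built mainly of slow and type IIa fibres, so transcripts of type IIb fibres are scarce there.

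Soleus libraries held 10.21 to 20.75 M counts and heart libraries 19.65 to 26.51 M (M for mega, as in CPM). Slc25a4 averaged 14.5 CPM (counts scaled to a common library size, the total times its TMM factor) in non-exercised ANT1 soleus (SD 4.07) and 10.6 in exercised ANT1 soleus (SD 3.78, n = 6 each), whereas it spanned 2170 to 3603 CPM in non-exercised and 2534 to 4021 CPM in exercised mtDNA soleus, so the labels of the knockout held. Transcripts of mtDNA made up 33.99 to 47.59% of the counts in ANT1 soleus (median 37.42%) and 12.87 to 24.77% in mtDNA soleus (median 19.12%). The counting is not stated to use strand, so reads of Mybpc2, Tnnt3, Tnnc2, Atp2a1 and Casq1 may be mixed with those of a gene that overlaps them on the other strand (Gm44646, Prr33, Ube2c, Rabep2 and Gm17224). In whole muscle, fewer fibres of a type and less RNA per fibre cannot be told apart. Myh7, Myh2 and the slow troponins that define soleus were abundant in every library, the summed level of 8 soleus genes being 46060 to 56950 CPM in non-exercised ANT1 mice and 47070 to 63890 CPM in non-exercised mtDNA mice.

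Promoter sequence from RefSeq (build GRCm38.p6) was at hand for 7 of the 10 genes, in 8 windows, since Pvalb has a pair of starts. The 4 windows shown were picked because their genes stand for the patterns described below: Pvalb and Mybpc2 moved together over the libraries, Mylpf was lower in ANT1 muscle without following them, and Tnnc2 was higher with TMM scaling, though not with plain library totals. Each is the 250 bases before the annotated start on the coding strand, with capitals marking the E-box (CANNTG, the motif of the MyoD family, 1 in Mybpc2 and Mylpf and 2 in Tnnc2) and the MCAT motif (CATTCC, bound by TEAD factors, on the minus strand in Mybpc2 as GGAATG); the motifs do not overlap one another here. The windows are chr15:78206401-78206650 (minus) for Pvalb, chr7:44524670-44524919 (minus) for Mybpc2, chr7:127211358-127211607 (plus) for Mylpf and chr2:164779735-164779984 (minus) for Tnnc2. Their starts are those of RefSeq, which differ from the GENCODE gene bounds given below. By those bounds the Mylpf window lies inside its gene (127208890 to 127214298), and most of the Tnnc2 window lies inside its gene, which ends at 164779967.
Pvalb: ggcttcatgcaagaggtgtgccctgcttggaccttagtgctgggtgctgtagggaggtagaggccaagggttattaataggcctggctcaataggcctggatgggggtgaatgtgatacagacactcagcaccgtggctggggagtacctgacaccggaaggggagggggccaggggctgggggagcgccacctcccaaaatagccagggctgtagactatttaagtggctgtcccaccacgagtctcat
Mybpc2: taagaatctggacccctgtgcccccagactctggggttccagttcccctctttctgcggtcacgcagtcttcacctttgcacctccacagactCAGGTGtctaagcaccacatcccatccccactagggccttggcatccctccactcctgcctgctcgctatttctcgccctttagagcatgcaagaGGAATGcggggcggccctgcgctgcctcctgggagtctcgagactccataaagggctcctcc
Mylpf: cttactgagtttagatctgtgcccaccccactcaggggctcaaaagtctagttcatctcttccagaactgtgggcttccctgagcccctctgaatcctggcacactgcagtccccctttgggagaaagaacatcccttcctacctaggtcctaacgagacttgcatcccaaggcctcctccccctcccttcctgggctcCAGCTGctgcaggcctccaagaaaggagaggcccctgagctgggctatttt
Tnnc2: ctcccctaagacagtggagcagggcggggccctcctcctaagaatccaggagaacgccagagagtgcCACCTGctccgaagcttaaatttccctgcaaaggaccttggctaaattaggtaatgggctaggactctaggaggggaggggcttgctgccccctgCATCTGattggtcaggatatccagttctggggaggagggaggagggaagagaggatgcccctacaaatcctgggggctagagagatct
Searched on both strands, an E-box was in 7 of the 8 windows and in 66.2% of all 32851 windows of this length, and an MCAT motif in 2 of 8, those of Mybpc2 and Myl1, and in 12.6% of all. The MEF3 motif (TCAGGTT) was in 0 of 8 windows and 3.49% of all, and the MEF2 consensus in 0 of 8 and 0.508% of all. The Pvalb window shown held none of these letters.

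The 10 genes differ by orders of magnitude in soleus. Per transcript length, in the deposited FPKM, non-exercised mtDNA mice averaged 10470 for Tnnt3, 8655 for Tnnc2, 7366 for Tnni2, 4902 for Myl1, 4421 for Mylpf and 2550 for Atp2a1, against 492.6 for Casq1, 403.7 for Pvalb, 125 for Actn3 and 72.95 for Mybpc2. The troponins, light chains and pump, which type IIa fibres also use, were thus abundant, and the calcium buffer, the Z-disc protein and the fast myosin-binding protein were minor transcripts. Spread between mice followed the same division: within groups, pooled over all 8, the SD of log2 CPM was 0.85 for Actn3, 1.23 for Pvalb and 1.28 for Mybpc2, and 0.15 to 0.34 for the other 7 genes. Without exercise, relative spread was wider in ANT1 for Pvalb (9.04 ± 12.7 CPM in ANT1, 250 ± 106 in the mtDNA strains) and Mybpc2 (20.2 ± 30.2 and 218.9 ± 90.9). For Actn3 it was narrower in ANT1 (7.13 ± 0.92 and 278.7 ± 111, SD, n = 6 and 18 throughout).

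ANT1 soleus had almost none of Actn3, Pvalb and Mybpc2. Actn3 (chromosome 19, 4861216 to 4877909, minus strand, GRCm38) encodes alpha-actinin-3, which cross-links actin at the Z-disc of fast fibres. Among non-exercised mice its lowest, median and highest levels were 5.564, 7.122 and 8.18 CPM in ANT1 and 106.3, 280.2 and 512.6 CPM in the mtDNA strains. Exercised mice had 5.536, 6.449 and 36.18 CPM in ANT1 and 57.05, 165.8 and 845.2 CPM in the mtDNA strains. Every ANT1 mouse lay below every mtDNA mouse of its arm, and the ANT1 mouse nearest to them was A30 in the exercised arm. The share of all genes whose groups part in this way was not counted. Lack of overlap, for Actn3 and for the genes below, is therefore not read as particular to them. The log2 fold change of ANT1 over the mtDNA strains was -5.27 ± 0.56, or 38.5-fold lower (SE; edgeR quasi-likelihood F test, adjusted p = 1.12e-10) without exercise and -4.53 ± 0.53 (adjusted p = 1.72e-09) with it.

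Pvalb (chromosome 15, 78191114 to 78206400, minus strand) encodes parvalbumin, the cytosolic buffer that takes calcium off troponin C and speeds relaxation. Non-exercised ANT1 mice had 0.591, 3.583 and 33.92 CPM as lowest, median and highest, against 57.81, 247.3 and 460.1 CPM in non-exercised mtDNA mice. With exercise the values were 0.5609, 1.71 and 33.12 CPM in ANT1 and 53.23, 200.1 and 779.6 CPM in the mtDNA strains. The groups did not overlap in either arm, but single ANT1 mice, A88 without and A30 with exercise, had by far the highest levels of their groups. The log2 fold change was -4.71 ± 0.68, or 26.2-fold lower (adjusted p = 1.99e-07), without exercise and -5.20 ± 0.71 (adjusted p = 5.73e-08) with it. Without A88 the non-exercised value was -5.94, and without A30 the exercised value was -7.02 and that of Actn3 -5.35.

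Mybpc2 (chromosome 7, 44501699 to 44524656, minus strand) encodes the fast isoform of myosin-binding protein C, a regulator of cross-bridges on the thick filament. Non-exercised mice had 0.9981, 7.614 and 79.24 CPM in ANT1 and 59.12, 219.3 and 410 CPM in the mtDNA strains, and here 5 of 6 ANT1 mice were below all 18, with A88, at 79.24, inside the mtDNA range. Exercised mice had 0.7195, 1.919 and 31.85 CPM in ANT1 and 74.85, 162.9 and 653.9 CPM in the mtDNA strains, without overlap. The log2 fold change was -3.39 ± 0.65, or 10.5-fold lower, without exercise (adjusted p = 3.01e-05) and -4.98 ± 0.73 with it (adjusted p = 2.8e-07). Without A88 the non-exercised value was -4.71, and without A30 the exercised value was -6.55.

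**Figure D1:**
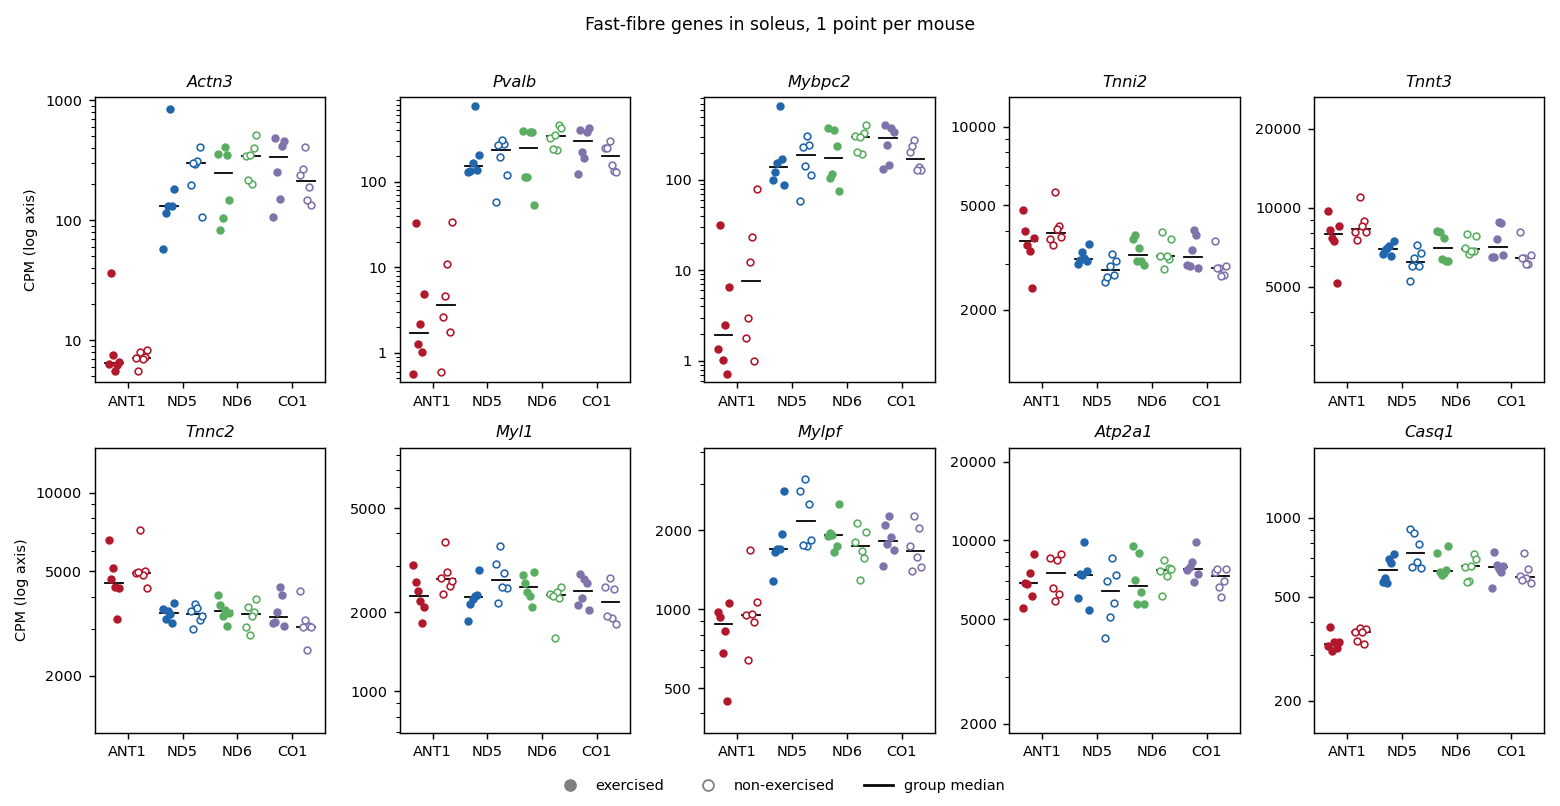
Level of each of the 10 genes in CPM on a log axis in 48 soleus libraries, with a point per mouse, filled for exercised and open for non-exercised mice, strains along the x axis and a line at the median of each group of 6. Actn3, Pvalb and Mybpc2 are far lower in ANT1 than in the mtDNA strains, Mylpf and Casq1 are lower by 0.89 and 0.90 in log2 without exercise, and Tnnc2 is higher on this TMM scale (with plain library totals it stood at -0.03 in log2), while Myl1 and Atp2a1 overlap throughout.

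The light chains of myosin parted. Mylpf (chromosome 7, 127208890 to 127214298, plus strand) encodes the fast regulatory light chain, and Myl1 (chromosome 1, 66924295 to 66945404, minus strand) the fast essential light chains. Mylpf reached 642.2, 953.4 and 1690 CPM as lowest, median and highest in non-exercised ANT1 mice, against 1296, 1783 and 3154 CPM in non-exercised mtDNA mice. The exercised values were 444.4, 880.5 and 1058 CPM in ANT1 and 1286, 1828 and 2823 CPM in the mtDNA strains. All but ANT1 mouse A82, the highest of its group, lay below the mtDNA mice. Mylpf fell by 0.89 ± 0.16 on the log2 scale without exercise (adjusted p = 1.69e-05) and was 2.30-fold lower with it (adjusted p = 9.77e-08). Myl1 spanned 2351 to 3709 CPM in non-exercised ANT1 mice and 1596 to 3573 CPM in non-exercised mtDNA mice, and the difference of 0.22 ± 0.10 missed the threshold (adjusted p = 0.068, 95% interval 0.02 to 0.43). Exercised, it spanned 1828 to 3041 CPM in ANT1 and 1845 to 2889 CPM in the mtDNA strains, a difference of -0.02 ± 0.10 (adjusted p = 0.881).

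Of the calcium store, Casq1 was lower in ANT1 muscle, and the pump gene Atp2a1 was not shown to differ with TMM scaling but was called lower with plain library totals. Casq1 (chromosome 1, 172209894 to 172219868, minus strand) encodes calsequestrin 1, the protein that holds calcium inside the sarcoplasmic reticulum. Its lowest, median and highest levels were 330.8, 365.6 and 378.3 CPM in non-exercised ANT1 mice and 562, 647.9 and 902.4 CPM in non-exercised mtDNA mice. With exercise they were 310.6, 328.4 and 384.1 CPM in ANT1 and 540.1, 634.9 and 778.6 CPM in the mtDNA strains. All 6 ANT1 mice of each arm lay below all 18 mtDNA mice, a separation whose share over all genes was not counted. Casq1 fell by 0.90 ± 0.08 on the log2 scale without exercise (adjusted p = 1.21e-13) and by 0.95 ± 0.08 with it (adjusted p = 4.28e-14). Atp2a1 (chromosome 7, 126445858 to 126463108, minus strand) encodes SERCA1, the calcium pump of fast fibres. It spanned 5882 to 8861 CPM in ANT1 and 4243 to 8551 CPM in the mtDNA strains without exercise, and 5534 to 8891 CPM in ANT1 and 5401 to 9855 CPM in the mtDNA strains with it. The log2 fold changes were 0.09 ± 0.12 (adjusted p = 0.57) without and -0.11 ± 0.12 (adjusted p = 0.5) with exercise. With plain library totals they were -0.55 (adjusted p = 2.35e-05) and -0.64 (adjusted p = 2.62e-06), and its deposited FPKM averaged 1771 ± 323 in non-exercised ANT1 mice and 2550 ± 233 in the mtDNA strains (SD, n = 6 and 18).

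The 3 fast troponins moved the other way with TMM scaling, and not with plain library totals. Tnnc2 (chromosome 2, 164777161 to 164779967, minus strand), the calcium-binding subunit, had 4301, 4946 and 7187 CPM as lowest, median and highest in non-exercised ANT1 mice, all above the 2506, 3323 and 4212 CPM of the mtDNA strains. In the exercised arm it had 3294, 4518 and 6577 CPM in ANT1 and 3091, 3486 and 4356 CPM in the mtDNA strains, and 4 of 6 ANT1 mice were above all 18. Tnnc2 rose by 0.64 ± 0.09 on the log2 scale without exercise (adjusted p = 2.5e-07) and by 0.42 ± 0.09 with it (adjusted p = 0.000314). Tnni2 (chromosome 7, 142441808 to 142444410, plus strand), the inhibitory subunit, spanned 3540 to 5623 CPM in non-exercised ANT1 mice and 2543 to 3943 CPM in the mtDNA strains, a rise of 0.45 ± 0.09 (adjusted p = 9.07e-05). Tnnt3 (chromosome 7, 142498836 to 142516009, plus strand), the tropomyosin-binding subunit, spanned 7547 to 11020 CPM in non-exercised ANT1 mice and 5242 to 8064 CPM in the mtDNA strains, a rise of 0.38 ± 0.09 (adjusted p = 0.000346). With exercise neither passed the test, at 0.15 for Tnni2 (adjusted p = 0.206) and 0.12 for Tnnt3 (adjusted p = 0.268).

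The values of the troponins, Myl1 and Atp2a1 depend on how libraries are scaled, while the 5 genes that fell were called lower under every scaling run. With plain library totals, where mtDNA transcripts count, 9 of the 10 genes were called lower and 0 higher in each arm, where 85.8% of all genes were called without and 80.9% with exercise, so this count is near that of all genes. Tnni2, Tnnt3 and Tnnc2 stood at -0.22, -0.28 and -0.03 without exercise, while the median of all genes tested stood at -0.69, against -0.04 with TMM scaling. The deposited FPKM likewise averaged 8385 ± 894 for Tnnc2 in non-exercised ANT1 mice and 8655 ± 1237 in the mtDNA strains (SD, n = 6 and 18), so the troponins were higher relative to most genes and not as a share of all transcripts. Transcript length also moved with the result: among genes outside the 10 with at least 6 on the log2 CPM scale, 262 genes with an effective length of 300 to 1000 bases had a median log2 fold change of 0.30 without exercise, and 73.3% of them were called higher, against a median of 0.03 and 33.6% for 611 genes of 2000 to 4000 bases. The troponins have effective lengths of 439 to 724 bases. With each library's own length trend removed, a setting chosen after the data were seen, Tnnc2 without exercise still passed (0.26, adjusted p = 0.00198), and Tnni2 (0.08, adjusted p = 0.381) and Tnnt3 (0.09, adjusted p = 0.314) no longer did.

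In all, 8 of the 10 genes were called (adjusted p under 0.05) in non-exercised mice, 3 higher and 5 lower, where 47.7% of all 13935 genes tested were called, 22.4% higher and 25.4% lower. In exercised mice 6 were called, 1 higher and 5 lower, where 43.5% of all genes were called, 21.1% higher and 22.4% lower, so that the count in this arm is by itself no result about the 10. The median log2 fold change of the 10 was -0.40 without and -0.53 with exercise, and that of all genes -0.04 and -0.02. The 5 falls were found against each mtDNA strain alone. Without exercise, Actn3 was at -5.24, -5.56 and -5.01 against ND5, ND6 and CO1, and Casq1 at -1.07, -0.84 and -0.78; 8, 9 and 9 of the 10 genes were called there, where 49.0%, 30.8% and 35.2% of all genes were. With exercise 6 of 10 were called against each of ND5, ND6 and CO1, where 39.1%, 33.8% and 30.9% of all genes were, and Pvalb was at -5.18, -5.07 and -5.36. These comparisons share the ANT1 mice.

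Myh4, the type IIb heavy chain, was itself low in ANT1 soleus. Its lowest, median and highest levels were 12.53, 20.13 and 33.32 CPM in non-exercised ANT1 mice and 25.35, 1241 and 3087 CPM in non-exercised mtDNA mice, a log2 fold change of -5.86 ± 1.21 (adjusted p = 9.87e-05). Exercised mice had 16.26, 17.88 and 242 CPM in ANT1 and 11.61, 286.7 and 5548 CPM in the mtDNA strains, at -4.40 ± 1.11 (adjusted p = 0.00117). Myh1, of type IIx, ran from 219 to 5986 CPM in non-exercised ANT1 mice and from 3212 to 7027 CPM in non-exercised mtDNA mice, with a log2 fold change of -0.77 ± 0.39 (adjusted p = 0.105), and fell by 1.76 ± 0.42 in exercised mice (adjusted p = 0.000697). Myh2, of type IIa, differed by 0.20 ± 0.09 without exercise (adjusted p = 0.0615) and -0.01 with it (adjusted p = 0.943). Slow Myh7 fell by 0.55 ± 0.12 without exercise (adjusted p = 0.000122) and was at -0.16 with it (adjusted p = 0.262). With plain library totals Myh2 was at -0.45 and Myh7 at -1.19 without exercise, beside a median of -0.69 over all genes.

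With the log2 level of Myh4 as a covariate, the falls remained and were smaller for the scarce genes. Non-exercised Actn3 was at -3.26 ± 0.25 (adjusted p = 5.42e-14), Pvalb at -2.76 ± 0.52 (adjusted p = 3.39e-05) and Mybpc2 at -1.57 ± 0.55 (adjusted p = 0.0198). Exercised mice gave -3.14 ± 0.22 for Actn3, -4.14 ± 0.51 for Pvalb and -3.97 ± 0.57 for Mybpc2 (adjusted p = 6.79e-15, 9.73e-09 and 2.84e-07). Casq1 was at -0.77 ± 0.09 without and -0.86 ± 0.08 with exercise, and Mylpf at -0.87 ± 0.21 and -1.19 ± 0.19, so that these 2 moved little with the covariate. Troponins stayed close to their values without it, Tnnc2 at 0.66 ± 0.13 and 0.43 ± 0.11, and Atp2a1 passed in non-exercised mice at 0.35 ± 0.14 (adjusted p = 0.0402), but stood at -0.28 with plain library totals. In this fit 9 of 10 genes were called without exercise, 4 higher and 5 lower, where 41.2% of all genes were called, and 6 with exercise, 1 higher and 5 lower, where 41.9% were. The call of Mybpc2 in non-exercised mice was lost without ND5 mouse B3 (-1.28, adjusted p = 0.0743), without ANT1 mouse A58 (adjusted p = 0.0505) or without A18 (adjusted p = 0.0514), and that of Atp2a1 when the square of Myh4 was added (0.24, adjusted p = 0.232).

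**Figure D2:**
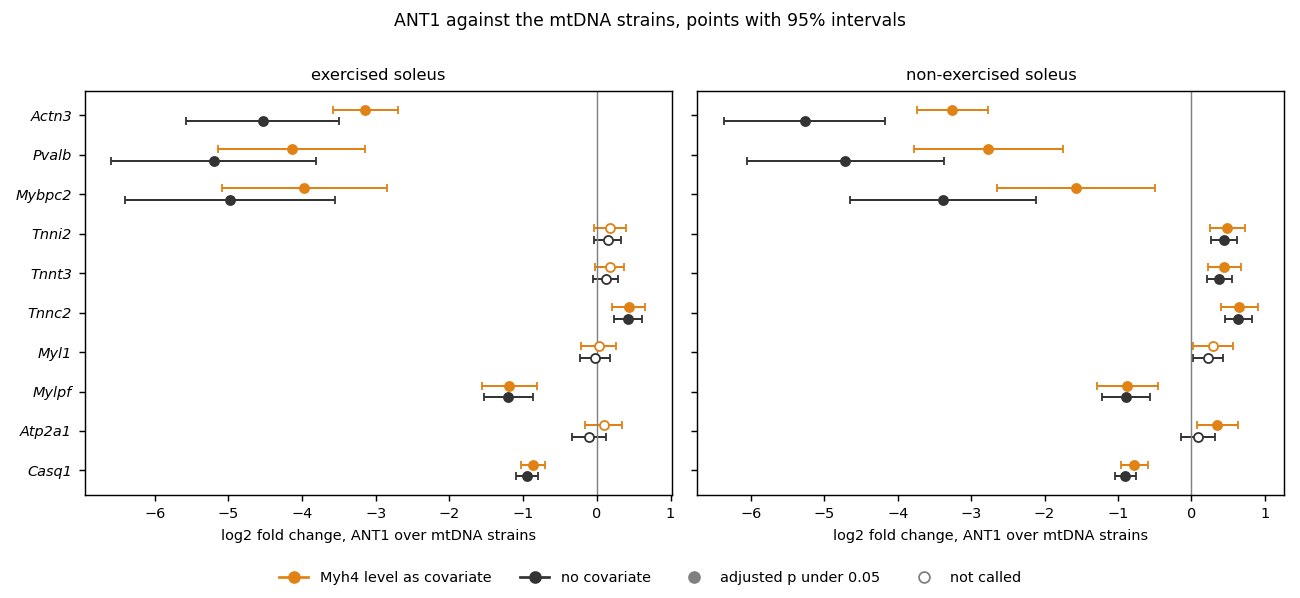
Log2 fold change of ANT1 over the mtDNA strains for the 10 genes with 95% intervals, in exercised (left) and non-exercised (right) soleus, with the Myh4 level as covariate (orange) and without (black), filled where the adjusted p is under 0.05. Actn3, Pvalb and Mybpc2 lie between -5.27 and -3.39 without the covariate in non-exercised mice and between -3.26 and -1.57 with it, while Casq1, Mylpf and the troponins barely shift.

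The covariate reaches across a gap, because 11 of the 12 ANT1 mice had a Myh4 level of at most 33.32 CPM. Of 36 mtDNA mice, 11 had no more Myh4 than the highest ANT1 mouse, A30 with 242 CPM. Only B69 and B3 of these lay within the 33.32 CPM that bounds the other ANT1 mice. The rest ran from 41.41 to 135.9 CPM of Myh4 and so are matched to A30 alone as an upper limit. ND5 mouse B69, exercised, had 11.61 CPM of Myh4, less than any ANT1 mouse, and yet 57.05 CPM of Actn3, 131.8 of Pvalb and 98.52 of Mybpc2. Non-exercised ND5 mouse B3 had 25.35 CPM of Myh4 with 106.3 of Actn3, 120.6 of Pvalb and 114.3 of Mybpc2. Over the 11 mice the lowest values were 57.05 CPM for Actn3 (B69), 53.23 for Pvalb and 59.12 for Mybpc2. Those of Pvalb and Mybpc2 were in ND6 mouse I59 and ND5 mouse B70, with 49.76 and 135.9 CPM of Myh4. All 36 mtDNA mice exceeded the highest ANT1 mouse in Actn3, which had 36.18 CPM.

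**Figure D3:**
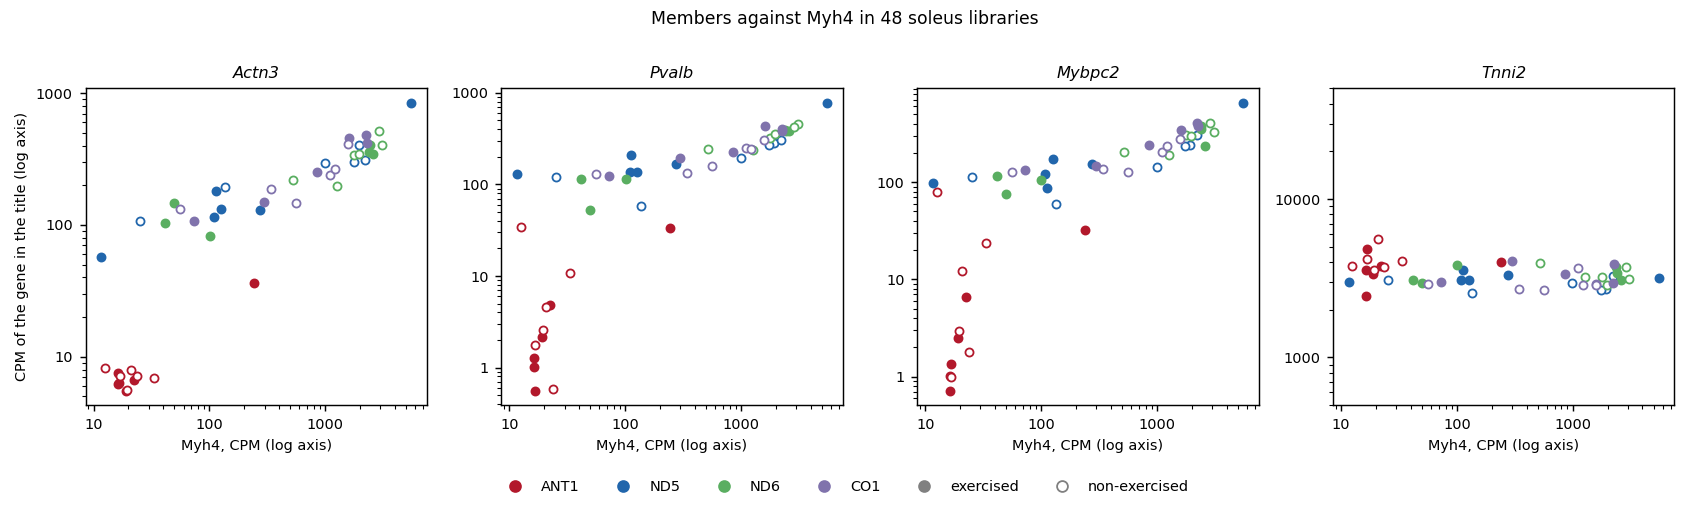
Levels of Actn3, Pvalb, Mybpc2 and Tnni2 against Myh4 in 48 soleus libraries, both axes in CPM and logarithmic, coloured by strain, filled for exercised mice. At like Myh4 the ANT1 mice lie below the mtDNA mice in Actn3 and Pvalb, whereas Tnni2 is flat over the whole range of Myh4.

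Within groups, 3 of the 10 genes followed Myh4 from mouse to mouse, by 1 slope per gene fitted in common to all 8 groups. Whether these slopes hold in ANT1 alone was not tested. There, without exercise, Pvalb ran from 0.591 to 33.92 CPM and Mybpc2 from 0.9981 to 79.24 CPM, while Myh4 ran from 12.53 to 33.32 CPM. The slope was 0.37 ± 0.03 log2 units per log2 unit of Myh4 for Actn3 (adjusted p = 3.87e-14), 0.34 ± 0.05 for Pvalb (adjusted p = 0.00026) and 0.32 ± 0.06 for Mybpc2 (adjusted p = 0.00402), where 0.323% of all genes, 45 in number, had a called slope. The slope of Mybpc2 was lost without ND5 mouse B98, which had the most Myh4, 5548 CPM (adjusted p = 0.088). Atp2a1 had a slope of 0.05 ± 0.02 (adjusted p = 0.229, and 0.0347 without B3), Casq1 of 0.02 ± 0.01 (adjusted p = 0.432), and the light chains and troponins of 0.00 to 0.01.

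As deviations from the group mean over the 48 soleus libraries, some of the genes went together. The points share their library, depth and dissection, and groups with a wider spread weigh more in a correlation. Pvalb and Mybpc2 had the closest tie among the scarce genes (Pearson r = 0.94), and Actn3 was closer to Myh4 (0.90) than to Pvalb (0.69) or Mybpc2 (0.63). Myh1, by contrast, went with Mybpc2 at 0.66 and Pvalb at 0.49, and with Actn3 at 0.20. The troponins went together, with 0.97 for Tnni2 and Tnnt3, 0.87 for Tnni2 and Tnnc2 and 0.82 for Tnnt3 and Tnnc2. Myl1 and Mylpf stood at 0.83 with each other and at 0.66 and 0.63 with Casq1, but Myl1 was also at 0.69 with Tnnc2, so the light chains are not apart from the troponins. Slow Myh7 ran against troponins and light chains, at -0.74 with Tnnc2, -0.72 with Myl1, -0.64 with Mylpf and -0.63 with Tnni2, but stood at -0.27 with Casq1 and 0.28 with Atp2a1. None of the correlations in this paragraph is adjusted for transcript length. The effective lengths of Tnnc2, Tnni2, Mylpf and Myl1 are 439 to 561 bases, against 1577 for Casq1 and 3119 for Atp2a1. Pvalb, with 691 bases, stood at 0.08 with Myh7. The part of length in these values was not tested. The genes whose deviations were most like the mean of the 10 were Myoz1 (0.76), which encodes the Z-disc protein calsarcin-2 of fast fibres, then Parm1, Tspan8, Tmem56, Ldha, Myh4 (0.71), Phkg1 and Tmem233, down to 0.70. This mean was of unscaled deviations, so Mybpc2, Pvalb and Actn3, with the widest spread, weigh most in it. Outside the 10, Tspan8 and Tmem56 were also most like Pvalb (0.81 and 0.76) and Mybpc2 (0.81 and 0.80), and Myh4 most like Actn3. Singly, Atp2a1 was most like Pygm (0.94), the muscle glycogen phosphorylase, and Tnni2 most like Uqcrb (0.87), a subunit of respiratory complex III.

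**Figure D4:**
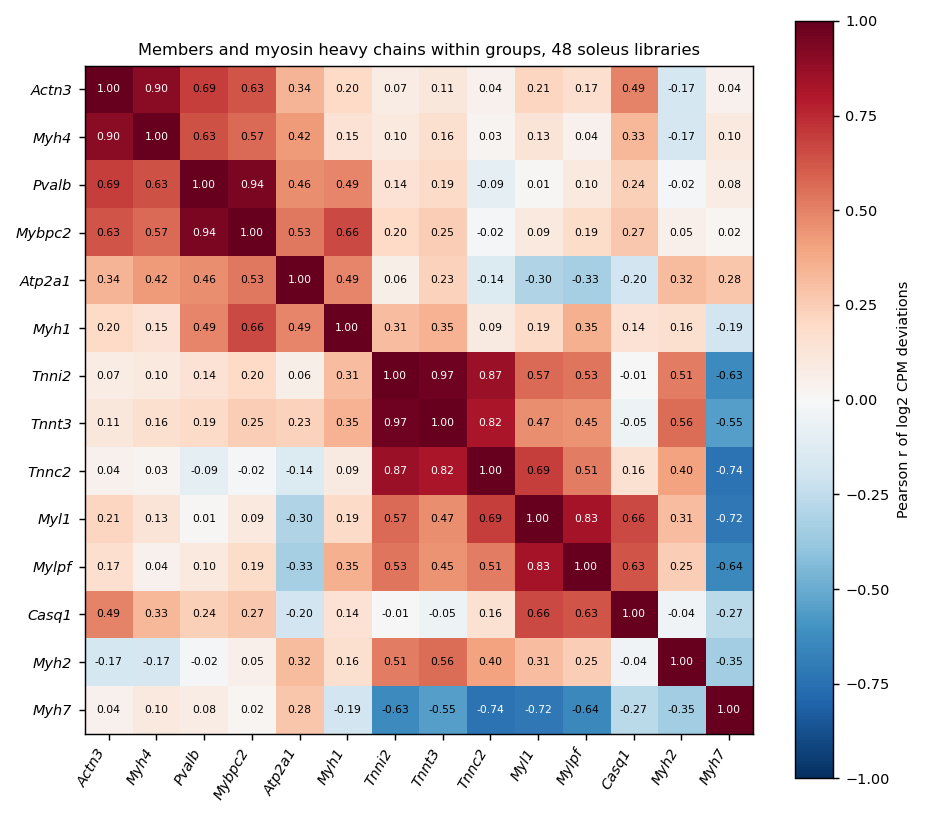
Pearson correlation of log2 CPM, as deviation from the mean of each group of 6, between the 10 genes and the 4 myosin heavy chain genes over 48 soleus libraries. Actn3 with Myh4 and Pvalb with Mybpc2 stand at 0.90 and 0.94, the 3 troponins at 0.82 to 0.97, and Myh7 is negative with troponins and light chains.

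Most of the 10 genes have a counterpart in the same muscle, of slow fibres or, for Actn3, of all fibres. Such pairs, 9 in number, were compared as log2 ratios of FPKM, which are free of library scaling. The pairs were chosen after the data were seen. Each was tested by an exact two-sided permutation test over 134596 arrangements of mice within an arm, adjusted over 18 tests, with 7.43e-06 as the smallest p these can give. Actn3 over Actn2, the alpha-actinin of all fibres, averaged -8.79 ± 0.26 in non-exercised ANT1 mice and -3.42 ± 0.63 in the mtDNA strains (SD, n = 6 and 18; exact permutation adjusted p = 2.23e-05). Mybpc2 over Mybpc1 averaged -8.98 ± 2.45 in ANT1 and -4.57 ± 0.70 in the mtDNA strains (exact permutation adjusted p = 3.83e-05), and Casq1 over Casq2 1.12 ± 0.32 in ANT1 and 1.68 ± 0.28 in the mtDNA strains (exact permutation adjusted p = 0.000483). Mylpf over Myl2 averaged -1.85 ± 0.62 in ANT1 and -0.81 ± 0.60 in the mtDNA strains (exact permutation adjusted p = 0.00162). With exercise the ratios of Actn3, Mybpc2, Casq1 and Mylpf averaged -8.39, -10.24, 0.83 and -2.40 in ANT1. In exercised mtDNA mice they averaged -3.76, -4.58, 1.81 and -0.77 (exact permutation adjusted p = 2.23e-05 for each).

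The ratios of troponins and pump leaned to the fast isoform in ANT1 muscle without exercise. Tnni2 over Tnni1 averaged 4.12 ± 0.37 in non-exercised ANT1 mice and 2.18 ± 0.41 in the mtDNA strains, and 3.61 ± 0.34 in exercised ANT1 mice and 2.44 ± 0.37 in the mtDNA strains (exact permutation adjusted p = 2.23e-05 and 4.01e-05). Slow Tnni1 itself fell in ANT1, by 1.51 ± 0.13 on the log2 scale without exercise (adjusted p = 1.99e-13). Tnnc2 over Tnnc1 averaged 1.95 ± 0.28 in ANT1 and 1.05 ± 0.39 in the mtDNA strains without exercise (exact permutation adjusted p = 4.01e-05). Tnnt3 over Tnnt1 averaged 2.13 ± 0.27 in ANT1 and 1.497 ± 0.280 in the mtDNA strains (exact permutation adjusted p = 0.000158), and Atp2a1 over Atp2a2 0.88 ± 0.37 in ANT1 and 0.39 ± 0.20 in the mtDNA strains (exact permutation adjusted p = 0.00029). With exercise, Tnnc2 over Tnnc1 averaged 1.53 ± 0.30 in ANT1 and 1.18 ± 0.31 in the mtDNA strains (exact permutation adjusted p = 0.0281). In that arm Tnnt3 over Tnnt1 averaged 1.72 in ANT1 and 1.68 in the mtDNA strains (exact permutation adjusted p = 0.805), and Atp2a1 over Atp2a2 0.51 in ANT1 and 0.49 in the mtDNA strains (exact permutation adjusted p = 0.903). Myl1 over Myl3 averaged -0.70 in non-exercised ANT1 mice and -0.15 in the mtDNA strains, which missed the threshold (exact permutation adjusted p = 0.0595). With exercise it averaged -1.01 ± 0.18 in exercised ANT1 mice and -0.17 ± 0.39 in the mtDNA strains (exact permutation adjusted p = 4.01e-05), beside a rise of slow Myl3 by 0.77 ± 0.11 (adjusted p = 2.31e-07).

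**Figure D5:**
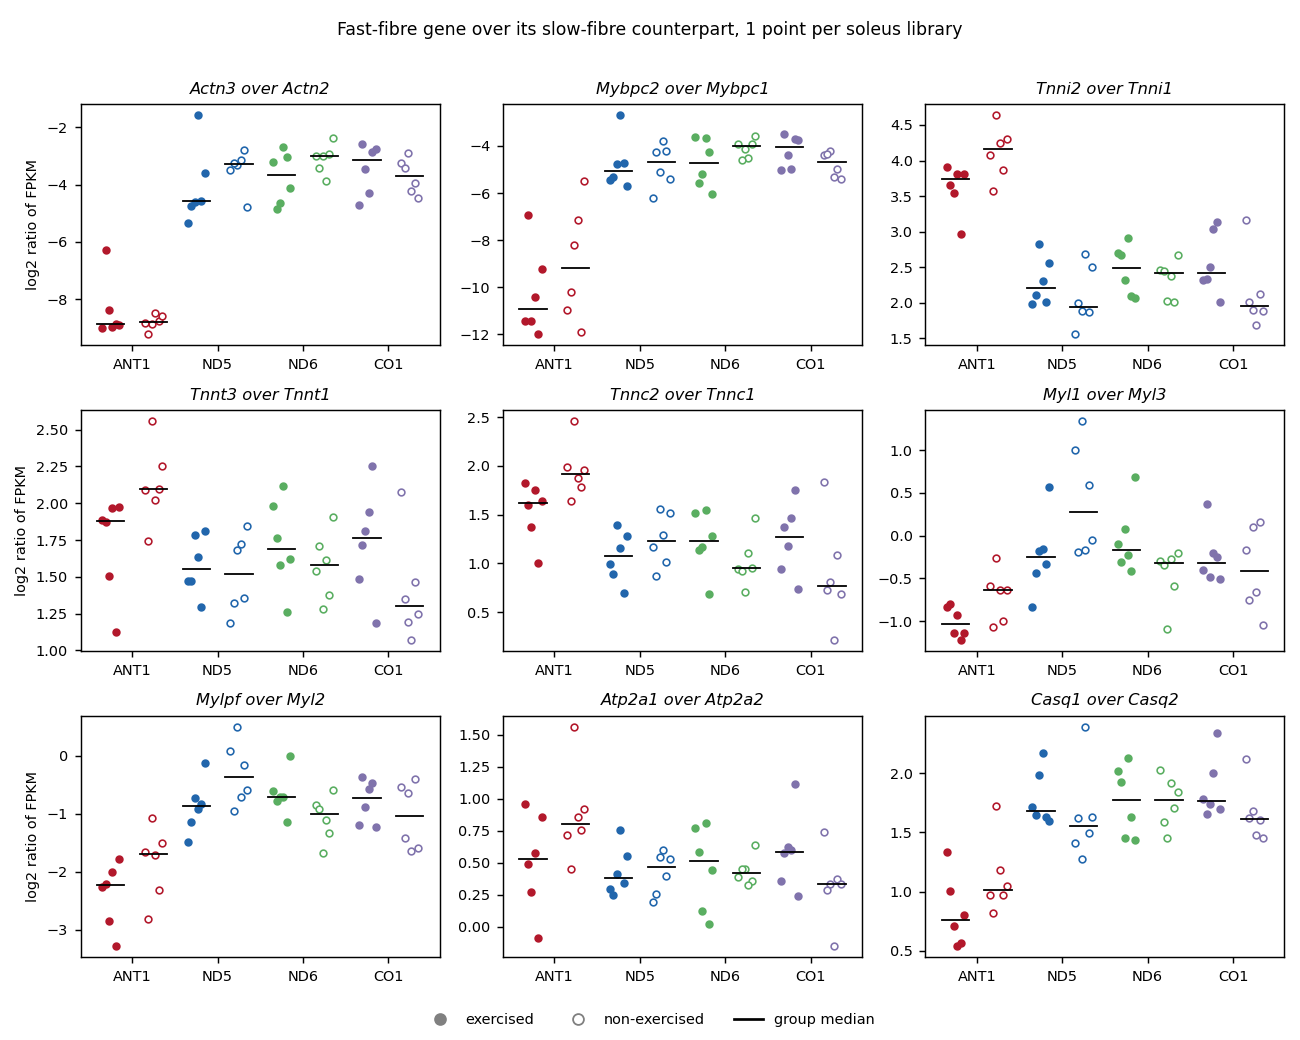
Log2 ratio of FPKM of a fast-fibre gene over its slow-fibre counterpart (for Actn3, over Actn2 of all fibres) for 9 pairs in soleus. Each point is a library, filled for exercised and open for non-exercised mice, with a line at the group median. ANT1 lies below the mtDNA strains for Actn3 over Actn2 and Mybpc2 over Mybpc1 and above them for Tnni2 over Tnni1, at -8.79, -8.98 and 4.12 on average without exercise.

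Between the mtDNA strains, compared in non-exercised soleus, the 10 genes were not shown to differ without the Myh4 covariate. Non-exercised Actn3 averaged 269.5 ± 104 CPM in ND5, 336.5 ± 117 in ND6 and 230.2 ± 101 in CO1, and Pvalb 205.8 ± 99.5, 341 ± 91.2 and 203.3 ± 72.2 CPM (SD, n = 6 each), within the spread between mice. Casq1 averaged 756.2 ± 117 CPM in ND5, 644.8 ± 64.6 in ND6 and 616.3 ± 62.5 in CO1. In edgeR's test 0 of the 10 genes were called for ND5 against ND6, where 14.5% of all genes were called, and 0 for ND5 against CO1 and ND6 against CO1, where 0% were. At an unadjusted p under 0.05 the counts were 3, 3 and 0, beside 4242, 3080 and 286 of all 13935 genes. Casq1 came nearest, at 0.23 ± 0.09 for ND5 over ND6 (adjusted p = 0.066, 95% interval 0.06 to 0.40) and 0.30 ± 0.09 for ND5 over CO1 (adjusted p = 0.0691, 95% interval 0.12 to 0.47). With Myh4 as covariate it passed for ND5 over ND6, at 0.27 ± 0.09 (adjusted p = 0.0426), where 8.32% of all genes were called.

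In soleus, sampled 6 days after the last session, training changed none of the 10 genes past the threshold. Without the covariate, in each of the 4 strains, on average over them, and for the difference between ANT1 and the mtDNA strains, 0 of 10 genes and 0% of all genes were called by edgeR. At an unadjusted p under 0.05 there were 1 gene in ANT1, 2 in ND5, 0 in ND6, 0 in CO1, 0 on average and 2 for the difference between strains. Of all 13935 genes, 350, 2086, 688, 268, 536 and 397 had such a p, in that order. DESeq2 and voom called 0 of the 10 in each of these comparisons. With Myh4 as covariate edgeR again called 0 of the 10 in each, and 0.0215% of all genes, 3 in number, for training in ND5. The effect of training averaged over strains was bounded well for the abundant genes: 0.02 with a 95% interval of -0.09 to 0.14 for Tnnc2, 0.04 with -0.07 to 0.14 for Tnnt3, and -0.07 with -0.15 to 0.02 for Casq1. It was bounded poorly for the scarce ones, at 0.12 with -0.37 to 0.60 for Actn3 and -0.29 with -0.92 to 0.35 for Mybpc2. In ANT1 alone, Mybpc2 averaged 7.33 ± 12.2 CPM in exercised and 20.2 ± 30.2 CPM in non-exercised mice (SD, n = 6 each), a log2 fold change of -1.48 ± 0.72 (adjusted p = 1) that was -0.15 without A88 and -3.06 without A30. The training effect in ANT1 minus that in the mtDNA strains was -0.30 ± 0.13 for Tnni2 and -0.26 ± 0.12 for Tnnt3 (adjusted p = 1 for both), so the loss of their call with exercise is not shown to be a change.

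Responders to training, 12 of the exercised mice with 3 per strain, were set against the 12 non-responders within strains. Pvalb had a lowest, median and highest level of 0.5609, 134.4 and 391.9 CPM in responders and 2.145, 164.1 and 779.6 CPM in non-responders, and Mybpc2 of 0.7195, 143.4 and 377.2 CPM in responders and 2.491, 113.6 and 653.9 CPM in non-responders. The ranges overlap almost wholly, since each class spans all strains. Within strains the log2 fold change was -1.23 ± 0.44 for Pvalb, -1.14 ± 0.44 for Mybpc2 and -0.28 ± 0.12 for Mylpf, with an adjusted p of 0.954 for each. Of the 10 genes 0 were called, where 0% of all 13843 genes tested were, and 3 had an unadjusted p under 0.05, as did 622 of all genes. The highest values of Pvalb and of Mybpc2 among non-responders, 779.6 and 653.9 CPM, were both of ND5 mouse B98. The log2 fold changes, however, moved most without the ANT1 non-responder A30, to -0.74 for both Pvalb and Mybpc2.

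In heart 8 of the 10 genes averaged under 10 CPM in each arm, and Myl1 and Mybpc2 more. Among exercised hearts, Tnnc2 averaged 0.0683 CPM in ANT1 and 0.0969 in the mtDNA strains, Tnnt3 0.681 CPM in ANT1 and 0.766 in the mtDNA strains, and Mybpc2 12.5 CPM in ANT1 and 15.5 in the mtDNA strains. Myl1 ran from 13.57 to 195.9 CPM in exercised ANT1 hearts and from 10.41 to 209.8 CPM in exercised mtDNA hearts, beside Myl7, the atrial light chain, at 2.792 to 2520 CPM in ANT1 and 0.9613 to 3230 CPM in the mtDNA strains. With Myl7 as covariate Myl1 was at -0.06 in exercised hearts (adjusted p = 0.925). Myh4 was at 0 in all 12 ANT1 and all 12 CO1 hearts and above 1.593 CPM in 1 heart alone, that of non-exercised ND5 mouse B80, with 14.98 CPM. That library also held 8.871 CPM of Tnnt3 and 2.786 CPM of Mylpf, the most of all non-exercised hearts, and its mouse is labelled exercised in soleus. Against the mtDNA strains together, Casq1 was the one called gene. It averaged 1.54 ± 1.05 CPM in exercised ANT1 hearts (n = 6) and 5.82 ± 3.93 in exercised mtDNA hearts (n = 18), and fell by 1.75 ± 0.43 on the log2 scale (adjusted p = 0.0138); the call was lost without ANT1 mouse A73 (adjusted p = 0.0702) or A69 (adjusted p = 0.0638). Non-exercised it averaged 1.65 ± 1.05 CPM in ANT1 and 5.14 ± 4.16 in the mtDNA strains (log2 fold change -1.52 ± 0.43, adjusted p = 0.0732). Thus 1 of 9 genes was called in exercised hearts, where 4.78% of all 15723 genes tested were, and 0 of 9 in non-exercised hearts, where 0.916% were. In the latter, 1 of the 9 had an unadjusted p under 0.05, as did 1820 of all genes. Atp2a1 averaged 6.78 CPM in exercised ANT1 hearts and 2.43 in exercised mtDNA hearts (log2 fold change 1.82, adjusted p = 0.0601), with medians of 1.861 CPM in ANT1 and 1.72 CPM in the mtDNA strains. It was called when ND6 mouse I4 or CO1 mouse E50 was left out, and stood at 0.77 (adjusted p = 0.495) without ANT1 mouse A71. With Myl7 as covariate Atp2a1 was called in exercised hearts (1.03, adjusted p = 0.0394), and Casq1 in exercised (-1.87, adjusted p = 0.00284) and non-exercised hearts (-1.68, adjusted p = 0.0104), where 9.79% of all genes were called with and 4.83% without exercise.

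Against single strains, non-exercised ANT1 hearts had 2 of 9 genes called lower than ND5, where 4.68% of all genes were called, Casq1 (-2.04, adjusted p = 0.016) and Mylpf (-1.73, adjusted p = 0.0364). Exercised ANT1 hearts had Casq1 called lower than ND6 (-2.59, adjusted p = 0.00253), where 2.75% were, and 0 of 9 genes against ND5 and CO1, where 1.91% and 1.30% were. Non-exercised ANT1 hearts had 0 of 9 called against ND6 and CO1, where 0.242% and 0.413% of all genes were. Between mtDNA strains, ND5 hearts had 2 of 9 genes called higher than CO1 without exercise, where 11.2% of all genes were, Tnnt3 (3.15, adjusted p = 0.0359) and Mylpf (2.00, adjusted p = 0.0133). At an unadjusted p under 0.05 there were 7 of 9, beside 5193 of all 15723 genes. For ND5 against ND6 and ND6 against CO1 hearts 0 of 9 and 0% of all genes were called. At an unadjusted p under 0.05 there were 1 and 5 of the 9, beside 1025 and 2164 of all genes. Without mouse B80, 0 of 9 genes were called in either non-exercised comparison with ND5 just given, and 0.538% and 0.0316% of all genes were, while among exercised hearts Casq1 in ANT1 against ND5 (-1.61, adjusted p = 0.0432) and Atp2a1 in ANT1 against CO1 (3.03, adjusted p = 0.0483) were then called. Whether the difference in Casq1 is of unlike size in soleus and heart was not tested.

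Other genes of fast fibres likewise went both ways. Of 19 further fast-fibre genes tested in non-exercised soleus, 6 rose and 8 fell in ANT1, with a median of -0.02, and in exercised soleus 4 rose and 10 fell, with a median of -0.23, beside medians of -0.04 and -0.02 over all genes. These lists are read against the 47.7% of all genes called without and 43.5% with exercise. Myoz3, of the Z-disc, fell by 3.58 ± 0.25 on the log2 scale without exercise (adjusted p = 3.21e-16) and by 3.23 ± 0.27 with Myh4 as covariate, and Ampd1, the muscle AMP deaminase, fell by 0.61 ± 0.08 (adjusted p = 8.56e-08). Ckm, the muscle creatine kinase, rose by 0.67 ± 0.07 (adjusted p = 5.87e-11), and Pgam2, the glycolytic phosphoglycerate mutase of muscle, by 0.62 ± 0.07 (adjusted p = 2.44e-09), though with plain library totals they stood at 0.01 and -0.04 and 0 of the 19 genes rose. Of 13 slow-fibre counterparts 1 rose and 7 fell without exercise, and 3 rose and 3 fell with it; with plain library totals 0 rose and 12 fell without and 1 rose and 11 fell with exercise. Myl3 was the one that rose (0.74 ± 0.11, adjusted p = 3.79e-07; 0.10 with plain totals), while Tnni1, Mybpc1 (-0.39 ± 0.06, adjusted p = 1.31e-06) and Myl6b (-2.93 ± 0.37, adjusted p = 9.06e-09) fell.

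Among 21 genes of calcium release and storage, 2 rose and 10 fell in non-exercised ANT1 soleus, and 3 rose and 8 fell in exercised, whereas with plain library totals 1 rose and 20 fell in each arm. The small inhibitors of the calcium pump went opposite ways. Pln, phospholamban, rose by 2.67 ± 0.21 on the log2 scale (adjusted p = 1.12e-14), and Sln, sarcolipin, fell by 4.36 ± 0.44 (adjusted p = 2.53e-11), at 2.75 and -4.15 with exercise and at 2.03 and -5.03 with plain library totals. Cacnb1, the beta subunit of the muscle calcium channel, fell by 1.34 ± 0.10 (adjusted p = 6.48e-15). Hrc, a calcium-binding protein of the sarcoplasmic reticulum, rose by 0.41 ± 0.06 (adjusted p = 9.63e-08), but was at -0.24 with plain totals. Of 24 genes of fibre-type control 1 rose and 10 fell without exercise, and 2 rose and 9 fell with it. The total called is near the share of all genes, but the direction is not. Of all genes 22.4% were higher and 25.4% lower without exercise, and 21.1% and 22.4% with it. The median of the 24 was -0.22 without and -0.13 with exercise, beside -0.04 and -0.02 over all genes. With plain library totals 0 rose in either arm and 22 fell without and 21 with exercise. Eya4, of the Eya family of transcriptional cofactors, fell by 2.02 ± 0.15 (adjusted p = 2.04e-15), Maf, a factor tied to type IIb fibres in mice, by 1.62 ± 0.17 (adjusted p = 3.2e-11), and Nfatc2, a calcineurin target, by 1.39 ± 0.22 (adjusted p = 9.6e-07).

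Markers of other cells moved with strain as well, and their part in the differences above was not tested. In non-exercised soleus 7 of 7 tendon genes were lower in ANT1, with a summed level of 41.36 to 82.49 CPM in ANT1 and 65.47 to 551.6 CPM in the mtDNA strains, and 5 of 7 macrophage genes, at 28.9 to 79.58 CPM in ANT1 and 27.1 to 290.1 CPM in the mtDNA strains. Of 5 tested genes of regenerating or denervated fibres 4 fell, at 34.31 to 75.81 CPM in ANT1 and 58.13 to 2311 CPM in the mtDNA strains, among them embryonic myosin Myh3 (-3.16 ± 0.84, adjusted p = 0.00194). Red-cell genes rose, 5 of 5 tested, at 262 to 626.9 CPM in ANT1 and 162.1 to 433 CPM in the mtDNA strains, with 0 of 5 called under plain library totals. Adipocyte genes rose in 1 of 6, at 186 to 445.2 CPM in ANT1 and 158 to 270.9 CPM in the mtDNA strains, and of 6 nerve genes 1 rose and 1 fell. Of 4 tested heart genes 0 rose and 2 fell, and of 8 soleus genes 1 rose and 5 fell, while with plain library totals all 4 and all 8 fell, as did 7 of 7 macrophage, 7 of 7 tendon and 5 of 5 regeneration genes. With exercise 3 of 7 tendon genes, 7 of 7 macrophage genes and 4 of 5 regeneration genes fell, 4 of 5 red-cell genes and 4 of 6 adipocyte genes rose, 1 nerve gene rose and 1 fell, 2 of 4 heart genes rose and 1 fell, and 2 of 8 soleus genes rose and 2 fell.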

How the data were processed

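RNA of soleus and heart, enriched with oligo(dT), was sequenced as paired-end libraries, per the labels' protocols. The authors deposited expected counts and FPKM per gene and tissue; STAR 2.5.2b, RSEM 1.2.28 and build mm10 are named in the submitters' processing notes, and no source used here states the strand setting. Columns were tied to mice by the code in their names; 24 columns whose names match no mouse were left aside, and the control strain was not analysed here. Expected counts were rounded to whole numbers, filtered with filterByExpr (13935 genes left in soleus, 15723 in heart, 13843 in the soleus fit of responders) and scaled by TMM. Models with edgeR 4.0.16 (R 4.3.3), tested by quasi-likelihood F, took in all 8 groups of a tissue, and Benjamini-Hochberg adjustment ran over all genes tested. The threshold for a call was an adjusted p of 0.05; adjusted p-values come from edgeR except where another test is named. CPM and log2 CPM (prior count 2) use the TMM-scaled library size. The Myh4 covariate is its centred log2 CPM. FPKM served for levels per length, for ratios within a library and, as log2(FPKM + 0.1) in limma 3.58.1, as an alternative. DESeq2 1.42.0 and voom were further alternatives. Positions are from GENCODE on GRCm38. Effective length was taken from the ratio of deposited counts to FPKM and was known for 91.02% of genes tested.

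The 10 genes, the gene lists and the tests were chosen with earlier results of these data known. Named beside the 10 were Slc25a4, the 4 myosin heavy chain genes, up to 4 genes of a list by smallest p, and the 8 genes most like the mean of the 10; 1 gene that this rule names is not reported here. Animals differ between groups of a tissue, so p-values measure the spread between mice. To look for libraries deposited more than once, the 120 within-group pairs of each tissue were compared: 0 held identical counts, and chi-square per gene was at least 7.14 in soleus and 6.77 in heart. Mouse B80 is labelled exercised in soleus and non-exercised in heart. Settings chosen after the data were seen were plain library totals, removal of each library's length trend, the pairs of fast genes with their counterparts, and single-strain comparisons of heart without mouse B80. The tests were tried on simulated counts.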

Additional observations from a re-analysis of the deposited data

Results flagged for a closer look

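In each of 80 sets of 6 soleus libraries (10 genes, 8 groups), the highest and the lowest mouse were examined on the log2 CPM scale. The gap from each to its nearest neighbour was set against the range of the group. Levels below are given in CPM. In 9 sets the ratio passed Dixon's 95% limit for 6 values, which chance passes in about 1 set of 20. ANT1 mouse A30, exercised, accounts for 2 of them, with 36.18 CPM of Actn3 where the other 5 mice had 5.536 to 7.561, and 384.1 CPM of Casq1 where the others had 310.6 to 334.9. This mouse also had the highest Myh4 of all ANT1 mice, 242 CPM. ND5 mouse B98, exercised, had 779.6 CPM of Pvalb against 131.8 to 207.4 in the other 5, and 653.9 CPM of Mybpc2 against 88 to 171.9, beside the highest Myh4 of all mice, 5548 CPM. Non-exercised ANT1 mouse A82 had 5623 CPM of Tnni2 against 3540 to 4188, and 7187 CPM of Tnnc2 against 4301 to 5017. Non-exercised CO1 mouse E42 had 3673 CPM of Tnni2 against 2680 to 2926, and 8064 CPM of Tnnt3 against 6081 to 6613. Non-exercised ND6 mouse I18 had the low value of the set, 1596 CPM of Myl1 against 2269 to 2495.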

How the results depend on the processing

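No paired analysis was possible because the groups compared within a tissue hold different mice. Actn3, Pvalb, Casq1 and Mylpf were called lower in ANT1 soleus in both arms, with and without Myh4 as covariate, under all alternatives run, and Mybpc2 in both arms without it. Leaving out each library in turn, Actn3 without exercise ranged from -5.32 to -5.19 and with exercise from -5.35 to -4.21, Pvalb from -5.94 to -4.45 and from -7.02 to -4.96, and Mybpc2 from -4.71 to -3.13 and from -6.55 to -4.73. With Myh4 as covariate and ND6 alone as reference, 5 of 10 genes were called in non-exercised mice, where 24.7% of all genes were. For ND5 against ND6 (0 called) the count was 3 with FPKM, 3 with plain library totals, 2 with the length trend removed, 1 with Myh4 as covariate and 0 to 2 with a library left out; for ND5 against CO1 (0) it was 1 with DESeq2, 2 with plain totals and 0 to 1 with a library left out. Responders against non-responders gave 2 with no filter. With Myh1 in place of Myh4, 1 gene had a called slope. In non-exercised heart 1 was called with DESeq2, FPKM, plain totals or Myl7 as covariate, and 0 to 1 with a library left out. In exercised heart 2 were called with Myl7 as covariate and 0 to 2 with a library left out. With Myl7 as covariate, 4.83% of all genes were called in non-exercised and 9.79% in exercised hearts. For the other settings listed from ND5 against ND6 onward, the share of all genes is not given beside the count. Those counts show only how the number moved and are not read as results about the 10.

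Changes of sign touched Tnni2, Tnnt3, Tnnc2, Myl1 and Atp2a1. In that order, the non-exercised log2 fold changes were -0.23, -0.29, -0.038, -0.44 and -0.54 with FPKM and -0.22, -0.28, -0.028, -0.45 and -0.55 with plain totals; with Myh4 as covariate they were -0.22, -0.26, -0.057, -0.37 and -0.29 with FPKM and -0.21, -0.24, -0.055, -0.40 and -0.28 with plain totals. In exercised mice the 3 troponins were at -0.43, -0.46 and -0.16 with FPKM and -0.42, -0.44 and -0.14 with plain totals; with Myh4 as covariate all 5 were at -0.42, -0.44, -0.17, -0.55 and -0.41 with FPKM and -0.41, -0.41, -0.16, -0.56 and -0.44 with plain totals. The median over all genes was -0.65 without and -0.54 with exercise under FPKM, and -0.69 and -0.57 under plain totals. With the length trend removed, Myl1 without exercise was at -0.11 (-0.015 with Myh4 as covariate), and exercised Tnni2 and Tnnt3 were at -0.17 and -0.13 (Tnni2, Tnnt3 and Myl1 at -0.12, -0.069 and -0.25 with Myh4 as covariate). Uncalled values near 0 also changed sign: Atp2a1 at -0.021 against ND6 alone without exercise, and exercised Myl1 at 0.042 against ND5 alone, at -0.10 to 0.042 with a library left out, and, with Myh4 as covariate, at -0.0052 by voom, -0.031 against ND6 alone and -0.046 to 0.084 with a library left out.

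Calls close to the threshold turned on single mice. Exercised Tnni2 and Tnnt3 were called without ANT1 mouse A13 (0.24, adjusted p = 0.0289, and 0.22, adjusted p = 0.0321). Non-exercised Myl1 was called with DESeq2 (adjusted p = 0.0499), with mtDNA genes left out (0.0462), and without A75, A18, B85 or E98. Mybpc2 with Myh4 as covariate in non-exercised mice was lost with DESeq2 (-1.46, adjusted p = 0.0509) and against ND6 alone (-1.67, adjusted p = 0.0538). Casq1 was called for ND5 over ND6 without B3, B10 or B47, and for ND5 over CO1 with any one of B3, B10, B47, E64 and E98 left out. The cause of these changes was not tested. Precision was lowest for the scarce genes, with a within-group SD of log2 CPM, pooled over all groups, of 1.23 for Pvalb and 1.28 for Mybpc2, against 0.15 for Casq1.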
